A study of Homo sapiens with 16 samples.

Results

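The comparison described is that of cells given sorafenib and then methyl methanesulfonate (MMS), called the combination, with cells given the DMSO vehicle, 24 h after MMS was added. Its members are the 4 libraries that the labels place in these groups, 2 of each, out of 16 in the series. The cells are MDA-MB-231 (MDA-MB231 in the labels), an established line from a triple-negative breast cancer, grown in DMEM with fetal bovine serum, and no group carries a transgene or deletion. The combination cells were kept in sorafenib at 1 µM for 12 h before MMS was added, so that their sorafenib exposure is 12 h longer than that of the cells given sorafenib alone for 24 h. For MMS the design text of the series gives 40 µg/mL where the sample labels have 40 µM, and the files do not settle which was used. The other 24 h groups used below are MMS alone and sorafenib alone (1 µM), and the 8 h groups used are DMSO and the combination, each with 2 libraries. Per the series' design text the 2 libraries of a group come from independent experiments. The p-values measure the spread between libraries of this 1 cell line.

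MMS is an alkylating agent that methylates DNA bases, chiefly guanine and adenine, as well as RNA and protein. Its DNA lesions are removed by base excision repair and direct reversal, and those that meet a replication fork call on homologous recombination, the Fanconi genes and translesion polymerases. Sorafenib inhibits RAF kinases and the receptors of VEGF and PDGF, and MDA-MB-231 cells carry an activating BRAF mutation that drives the RAF, MEK and ERK kinase cascade. ERK raises the transcription of its own inhibitors, the dual-specificity phosphatases and Sprouty proteins, whose transcripts are therefore used as a readout of the pathway. The line is also known for a high output of NF-kB and AP-1 driven cytokines such as IL8 and IL6.

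Levels are given as counts scaled by library size (CPM). The 4 libraries held 17608284 to 26381349 reads assigned to genes, and the 16 of the series 16774156 to 26448212. Of the 23228 gene rows, 13948 had enough reads to be tested. A gene can enter the test through reads in 1 group alone. The summed level of the claudin-low and basal marker list was 6881 and 7445 CPM in the DMSO libraries and 5107 and 5402 in the combination libraries, with VIM, CD44, EGFR, AXL and CAV1 each at 5844 reads or more in every one of the 4. Some members of that list had few or no reads: TWIST1 and KRT5 had none, KRT14 0 to 5 per library, SPARC 3 to 17 and TP63 1 to 31. Of the markers of other cell types, some were near the floor: ESR1 had 2 to 4 reads per library, PGR 4 to 15 and PTPRC 2 to 10. The leukocyte genes MS4A1 and NKG7 had none. Other members of these lists had more reads in some or all libraries. Per library the keratin genes KRT8, KRT18 and KRT19 had 4585 to 5661, 4354 to 6299 and 2498 to 5319. The tight junction gene CLDN4 had 1141 to 1647 and the epithelial gene EPCAM 210 to 508. The leukocyte-list genes CD68, CD14 and CD8A had 2151 to 2886, 25 to 246 and 37 to 86. The endothelial gene PECAM1 had 106 and 120 reads in the DMSO libraries and 11 and 10 in the combination libraries. The summed levels of the other lists were also lower in the combination libraries: 696 and 733 CPM against 925 and 1156 for luminal genes, 24.7 and 22.6 against 40.0 and 39.2 for fibroblast and endothelial genes, and 101 and 127 against 132 and 186 for leukocyte genes. Their part in the results was not tested. In bulk RNA, fewer cells of a kind and less RNA per cell cannot be told apart.

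Combination treatment was followed at 24 h by changes in 4663 of 13948 genes (33.4%) by edgeR's quasi-likelihood test at an adjusted p under 0.05, with 2262 higher (16.2%) and 2401 lower (17.2%). With the title start of the libraries as a block, which the labels do not tie to the experiments, 7044 genes passed, the 4663 among them, and 2940 passed without combination replicate 2. Falls reached further than rises. A fall of at least 2-fold was called for 915 genes and a rise of that size for 168, and at 4-fold the counts were 283 and 18. The median log2 change over all tested genes was 0.01. The counts given below for each list are to be read beside the 33.4% called over all tested genes, 16.2% higher and 17.2% lower. Calls given below as lost without a library come from fits without the block. There, the group left with a single title start is set against groups of both. In each of the 4663 genes both combination libraries lay on the same side of both DMSO libraries, which was so for 64.8% of all tested genes.

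**Figure D1:**
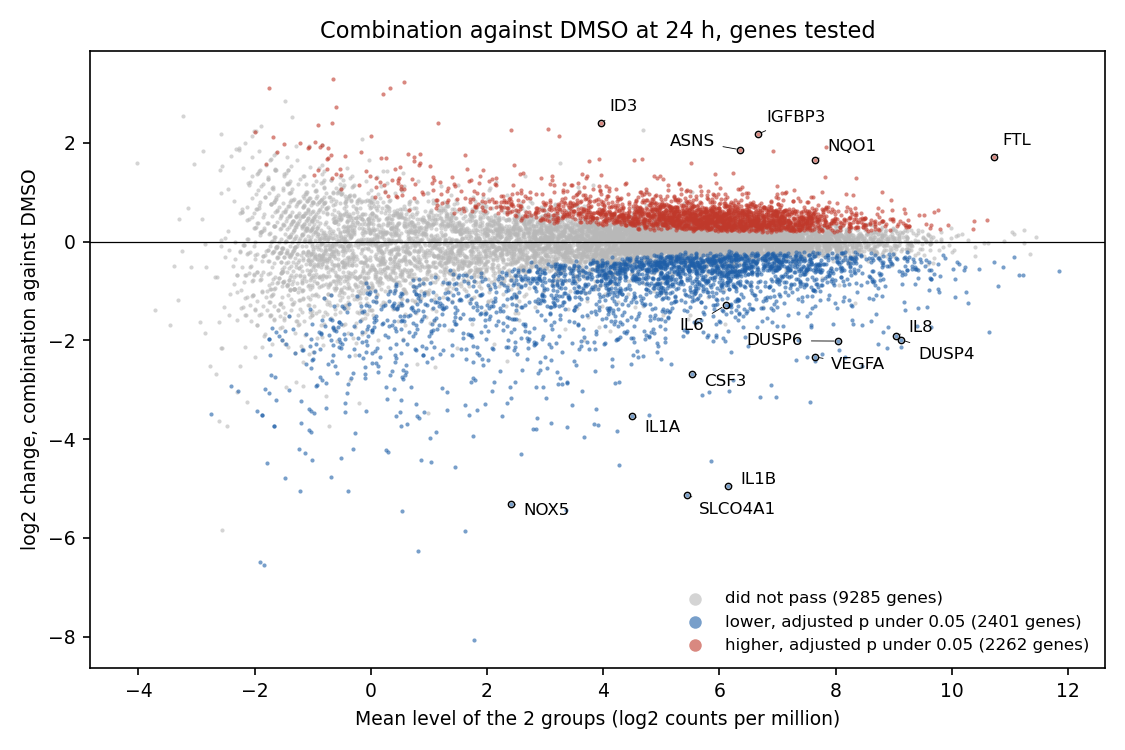
log2 change of the combination against DMSO at 24 h (vertical axis) by mean level in log2 CPM (horizontal axis) for the 13948 genes tested, 1 point a gene. The 2401 lower genes (blue) extend to much larger changes than the 2262 higher ones (red), and circled genes are named in the text.

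Among the largest rises were regulators of growth and stress. ID3, an inhibitor of basic helix-loop-helix transcription factors, stood at 23.5 and 29.0 CPM in the combination libraries against 4.24 and 5.70 in the DMSO libraries (log2 change 2.40 ± 0.26 SE, adjusted p = 5.45e-05). IGFBP3, a secreted binding protein of insulin-like growth factors, stood at 133 and 197 CPM in the combination libraries against 29.2 and 44.0 in the DMSO libraries (log2 change 2.17 ± 0.32 SE, adjusted p = 0.000398). For both genes the DMSO libraries lay far below the combination libraries. NUPR1, a small stress-induced chromatin protein, rose by 2.25 on the log2 scale (SE 0.27, adjusted p = 0.000115), the vasodilator peptide gene ADM by 1.91 (SE 0.37, adjusted p = 0.00219) and the small nucleolar RNA SNORA71C by 2.40 (SE 0.44, adjusted p = 0.00147). MYCT1 and GPR75 rose by 2.29 and 1.75. DHRS2, a short-chain dehydrogenase, rose by 2.13, or 2.72 without DMSO replicate 2.

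Several of the genes that fell furthest were left near the limit of detection. ASB2, a ubiquitin ligase subunit, had 7.36 and 6.27 CPM in DMSO and 0.0365 and 0 in the combination, where the higher value is a single read (adjusted p = 2.45e-06). The superoxide-producing oxidase NOX5 stood at 0.182 and 0.335 CPM in the combination libraries against 9.65 and 11.2 in the DMSO libraries (log2 change -5.32 ± 0.45 SE, adjusted p = 1.16e-05). The organic anion transporter SLCO4A1 stood at 2.41 and 2.35 CPM in the combination libraries against 66.0 and 102 in the DMSO libraries (log2 change -5.14 ± 0.54 SE, adjusted p = 4.49e-05). In both genes the 2 groups lay much further apart than the libraries of a group. The cystatin genes CST1 and CST4, which encode secreted protease inhibitors and are similar in sequence, fell, with log2 changes of -4.45 and -4.52. Their DMSO libraries differed widely, 50.6 and 169.5 for CST1 and 19.1 and 54.7 for CST4, and the changes ran from -5.32 to -3.32 and from -5.25 to -3.56 without single libraries, reaching the smaller size without DMSO replicate 2 and the larger without combination replicate 2 (for CST1, -5.07 without DMSO replicate 1 and -3.85 without combination replicate 1). LOC100127888 fell by 3.96 (-4.68 without combination replicate 1). Calls among the 10 largest falls were lost for AGR2 without DMSO replicate 1 or either combination library (adjusted p 2.69e-08 to 0.152 over its alternatives), for CMKLR1 without DMSO replicate 2 or either combination library (adjusted p 1.26e-08 to 0.184 over its alternatives) and for MMP9 without DMSO replicate 2 or either combination library (adjusted p 3.08e-10 to 0.282 over its alternatives). CMKLR1 ranged from -9.95 to -4.00 on the log2 scale and MMP9 from -6.44 to -2.78 without single libraries.

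Cytokine and chemokine transcripts fell more than any other list of non-marker genes by median. In this list 1 of 28 tested genes rose and 19 fell (34 listed, median log2 change -1.63, 4 and 22 with the block). The interleukin 1 genes, whose products start inflammatory signalling through a shared receptor, fell furthest among those with ample reads. IL1B stood at 5.69 and 3.02 CPM in the combination libraries against 156 and 118 in the DMSO libraries (log2 change -4.96 ± 0.30 SE, adjusted p = 1.57e-06). IL1A stood at 3.43 and 3.73 CPM in the combination libraries against 36.1 and 46.5 in the DMSO libraries (log2 change -3.53 ± 0.29 SE, adjusted p = 9.58e-06). In both, all DMSO libraries lay far above the combination libraries. The granulocyte growth factor CSF3 fell by 2.67 on the log2 scale (SE 0.17, adjusted p = 1.72e-06), as did the macrophage growth factor CSF1 (-2.27, SE 0.17, adjusted p = 5.71e-06). IL8, the neutrophil chemokine also named CXCL8, stood at 254 and 189 CPM in the combination libraries against 958 and 701 in the DMSO libraries (log2 change -1.91 ± 0.24 SE, adjusted p = 0.000136). IL6, which signals through gp130 and STAT3, stood at 45.9 and 34.0 CPM in the combination libraries against 97.7 and 97.7 in the DMSO libraries (log2 change -1.29 ± 0.20 SE, adjusted p = 0.000565). In these 2 genes the groups did not overlap, and the DMSO libraries of IL8 differed more from each other than those of IL6.

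Further members that fell were PTGS2 (-2.23), the inducible cyclooxygenase of prostaglandin synthesis, the death ligand gene TNFSF10 (-2.22), the gp130 cytokine IL11 (-1.68) and the neutrophil chemokines CXCL2 (-1.57) and CXCL3 (-1.27), all as log2 changes. CXCL10, an interferon-induced chemokine, fell by 3.70 (-2.97 without DMSO replicate 2). CXCL1 stood at 260.1 and 169 CPM in the combination libraries against 422 and 356 in the DMSO libraries (log2 change -0.86 ± 0.21 SE, adjusted p = 0.00837), and the call was lost for CXCL1 without DMSO replicate 1 or combination replicate 2 (adjusted p 4.08e-06 to 0.11 over its alternatives). IL18 alone rose (1.19 ± 0.40), and the call was lost for IL18 without either DMSO library or combination replicate 1 (adjusted p 2.07e-08 to 0.251 over its alternatives).

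The promoters of 3 of these genes are shown because NF-kB and AP-1 sites before the transcription start are a textbook feature of the family. Each line gives the 150 bases before the first listed start in RefSeq (GRCh38.p14), matched to the files by gene name only. Capitals mark the letters of the AP-1 motif TGAGTCA and of TATAAA in IL8 and of an NF-kB motif in IL6 and CXCL1, found on either strand. The windows are chr4:73740419-73740568 on the plus strand for IL8, chr7:22727050-22727199 on the plus strand for IL6 and chr4:73869243-73869392 on the plus strand for CXCL1.
IL8: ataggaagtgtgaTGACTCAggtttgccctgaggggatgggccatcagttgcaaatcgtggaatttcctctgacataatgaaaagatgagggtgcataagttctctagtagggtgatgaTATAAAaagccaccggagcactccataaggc
IL6: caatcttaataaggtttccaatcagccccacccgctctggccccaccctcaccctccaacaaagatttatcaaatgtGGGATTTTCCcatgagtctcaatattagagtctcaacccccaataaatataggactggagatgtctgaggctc
CXCL1: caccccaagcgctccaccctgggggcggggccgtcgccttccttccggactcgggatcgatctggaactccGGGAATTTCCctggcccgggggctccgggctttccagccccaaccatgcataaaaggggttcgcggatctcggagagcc
Over the 27305 promoter windows of the same length in the table, TGAGTCA was found in 2.8%, TATAAA in 7.0% and the NF-kB motif in 0.4%. Of the 28 tested genes of the cytokine list 21 had a promoter in the table. Of these, 5 (23.8%) held TGAGTCA, 6 (28.6%) TATAAA and 6 (28.6%) the NF-kB motif, so that most lacked each motif. A match is a string of letters and does not show binding. Nor does the lack of a match exclude a site. The IL8 window holds a near match to the NF-kB motif, left in lower case because only full matches were marked and counted.

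NF-kB feedback genes did not move as 1 group: in their list 6 of 28 tested genes rose and 10 fell (28 listed, median log2 change 0.02, 10 and 10 with the block). NFKBIA, the inhibitor that holds NF-kB in the cytoplasm, fell from 189 and 200.3 to 114 and 98.1 CPM (log2 change -0.88 ± 0.09 SE, adjusted p = 2.99e-05), and TNIP1 (-0.81), the kinase gene IKBKE (-1.12) and the stress gene IER3 (-1.35) fell as well. A second inhibitor gene, NFKBIB, rose (log2 change 0.93 ± 0.11, adjusted p = 9.49e-05).

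ERK pathway output was lower in most of its listed genes: 2 of 33 tested genes rose and 22 fell (33 listed, median log2 change -0.92). DUSP6, a phosphatase that inactivates ERK, stood at 105 and 104 CPM in the combination libraries against 421 and 425 in the DMSO libraries (log2 change -2.02 ± 0.10 SE, adjusted p = 4.96e-07). DUSP4, a nuclear phosphatase of the same family, stood at 232 and 218 CPM in the combination libraries against 880.1 and 911 in the DMSO libraries (log2 change -1.99 ± 0.07 SE, adjusted p = 3.50e-08). The 2 libraries of each group differed by little, and the combination stood 4.04-fold lower for DUSP6 and 3.97-fold lower for DUSP4. The Sprouty genes SPRY1 and SPRY2, feedback inhibitors of receptor signalling, fell, with log2 changes of -1.57 and -1.18. So did ERRFI1 (-2.16), an inhibitor of the EGF receptor, the ETS factor ETV1 (-1.89), PHLDA1 (-1.72) and the urokinase gene PLAU (-2.33, adjusted p = 4.55e-05). CCND1, the cyclin of early G1, fell by 0.42 (SE 0.09, adjusted p = 0.00295). DUSP1 (0.53) and EGR1 (1.66), both immediate early genes, were the 2 that rose. Calls were lost for DUSP1 without DMSO replicate 2 or either combination library (adjusted p 4.71e-05 to 0.125 over its alternatives) and for EGR1 without either DMSO library or combination replicate 2 (adjusted p 9.76e-05 to 0.195 over its alternatives), whose change was 0.77 without combination replicate 2.

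Immediate early genes, which respond quickly to growth factors and stress, moved in shares not far from those of all tested genes (16.2% higher and 17.2% lower): in their list 5 of 34 tested genes rose and 8 fell (34 listed, median log2 change 0.06, 8 and 9 with the block). FOSL2 (-0.77), a partner in AP-1, BTG1 (-0.52) and the survival gene MCL1 (-0.42) fell. The 5 that rose were EGR1, DUSP1, KLF10 (0.34), ZFP36 (0.51) and ARC. ARC had 1.90 and 2.60 CPM in the combination and 0.0558 and 0.452 in DMSO (log2 change 3.12, or 2.30 without DMSO replicate 1 and 5.19 without DMSO replicate 2). Calls were lost for KLF10 without either DMSO library or combination replicate 2 and in a fit of the compared libraries alone (adjusted p 0.00179 to 0.184 over its alternatives) and for ZFP36 without DMSO replicate 2 or combination replicate 2, in a fit of the 24 h libraries alone and in a fit of the compared libraries alone (adjusted p 0.00737 to 0.251 over its alternatives).

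Angiogenic factors and their receptors were mostly lower, and in their list 3 of 39 tested genes rose and 15 fell (43 listed, median log2 change -0.57, 3 and 25 with the block). VEGFA, the main growth factor of blood vessels, stood at 62.2 and 69.8 CPM in the combination libraries against 318 and 348 in the DMSO libraries (log2 change -2.33 ± 0.19 SE, adjusted p = 9.01e-06), 5.04-fold lower with the combination and with no overlap of the libraries. The related ligands PGF (-1.49) and VEGFC (-0.55), the co-receptor gene NRP1 (-1.35), the EGF-family ligand HBEGF (-0.92) and the ephrin gene EFNB2 (-0.74) also fell. ADM (1.91), the vasoconstrictor gene EDN1 (1.39) and the lipid kinase gene SPHK1 (1.16) rose.

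VEGFA is also a hypoxia target, and in the hypoxia and glycolysis list 1 of 42 tested genes rose and 23 fell (43 listed, median log2 change -0.46, fell in 15 without DMSO replicate 2, 15 without combination replicate 1 and 14 without combination replicate 2). The mTORC1 inhibitor gene DDIT4 stood at 29.6 and 21.2 CPM in the combination libraries against 203 and 248 in the DMSO libraries (log2 change -3.15 ± 0.22 SE, adjusted p = 3.79e-06). CA12, a carbonic anhydrase, fell by 2.43 on the log2 scale. LDHA (-1.03, SE 0.07, adjusted p = 2.89e-06), which makes lactate from pyruvate, fell with the glucose transporter gene SLC2A1 (-0.89, SE 0.10, adjusted p = 5.26e-05). ADM was the member that rose.

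Genes of matrix breakdown were also mostly lower, and in the protease list 2 of 31 tested genes rose and 19 fell (33 listed, median log2 change -0.69, 5 and 23 with the block). Both plasminogen activator genes fell: PLAU stood at 94.6 and 95.8 CPM in the combination libraries against 415 and 544 in the DMSO libraries (log2 change -2.33 ± 0.24 SE, adjusted p = 4.55e-05), and PLAT fell by 2.52 on the log2 scale (SE 0.20). The membrane metalloprotease MMP14 fell by 1.38, and falls were also seen for the sheddase gene ADAM8 (-2.40), the lysosomal protease gene CTSB (-0.43) and the inhibitor gene TIMP3 (-2.08). The list therefore held falls on both the protease and the inhibitor side. SERPINE2 (0.97), an inhibitor of plasminogen activation, was among the 2 that rose. The test was no longer passed for SERPINE2 without either DMSO library or combination replicate 2 (adjusted p 2.50e-07 to 0.137 over its alternatives). In the TGF-beta and mesenchymal list 6 of 43 tested genes rose and 18 fell (44 listed, median log2 change -0.21). Both receptor genes fell, TGFBR1 (-1.33) and TGFBR2 (-1.47), with the latent TGF-beta binding gene LTBP1 (-3.52), the collagen cross-linking enzyme gene LOXL2 (-1.69) and the fibronectin gene FN1 (-0.89). ID3 (2.40) and the N-cadherin gene CDH2 (1.54) rose, as did ID2 (2.72), whose mean count over the 4 libraries was under 50.

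Interferon-response genes fell more often than they rose: in their list 2 of 42 tested genes rose and 14 fell (42 listed, median log2 change -0.28, fell in 9 without DMSO replicate 2, 9 without combination replicate 1 and 8 without combination replicate 2). GBP2, a GTPase of cell-autonomous defence, stood at 6.75 and 4.74 CPM in the combination libraries against 26.4 and 33.6 in the DMSO libraries (log2 change -2.38 ± 0.30 SE, adjusted p = 0.000144). IFIT2 (-1.17), IFIT3 (-1.01) and the RNA sensor gene DDX58 (-1.14) fell. STAT2 (0.53), a factor of interferon signalling, was among the 2 that rose.

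**Figure D2:**
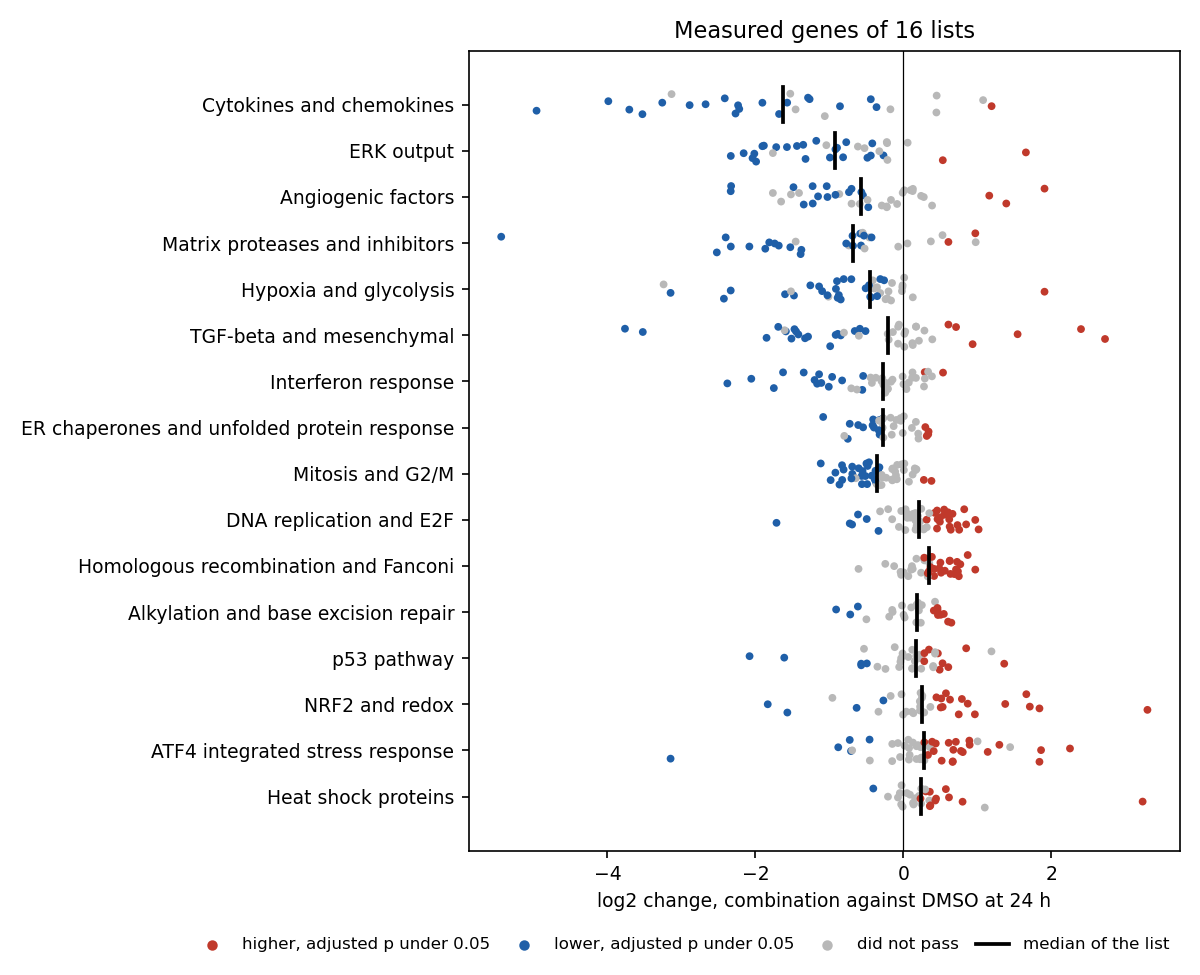
log2 change of the combination against DMSO at 24 h (horizontal axis) for the tested genes of 16 lists (rows), 1 point a gene, red where higher, blue where lower and grey where the test was not passed, with the list's median as a black bar. The medians run from -1.63 for cytokines and chemokines to 0.35 for homologous recombination and Fanconi genes.

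Stress programmes were partly higher. The integrated stress response raises ATF4, a transcription factor of amino acid supply, and in the list of its targets and regulators 20 of 48 tested genes rose and 5 fell (50 listed, median log2 change 0.28). ASNS, which makes asparagine, stood at 138 and 119.7 CPM in the combination libraries against 45.0 and 26.0 in the DMSO libraries (log2 change 1.86 ± 0.24 SE, adjusted p = 0.00016). The amino acid transporter genes SLC3A2 and SLC7A11, which together form the cystine carrier, rose by 1.30 and 1.84 on the log2 scale, the latter by 2.51 without DMSO replicate 1, and PCK2, the mitochondrial PEP carboxykinase, rose by 1.14. ATF4 itself changed by 0.18 ± 0.17 (adjusted p = 0.464) and DDIT3, its pro-apoptotic target CHOP, by 0.32 ± 0.18 (adjusted p = 0.202); neither passed the test, though DDIT3 did without combination replicate 1 (adjusted p = 0.0258). DDIT4, SLC6A9 (-0.88), HERPUD1 (-0.73), CEBPB (-0.71) and SLC38A2 (-0.46) were the 5 that fell. The call was lost for SLC38A2 without DMSO replicate 1 or combination replicate 2, in a fit of the 24 h libraries alone and in a fit of the compared libraries alone (adjusted p 7.07e-05 to 0.231 over its alternatives). The ASNS promoter is shown for its nutrient-sensing element, read here as TGATGNAA, the letters that ATF4 is known to bind. The capitals in the 150 bases at chr7:97872409-97872558 on the minus strand (RefSeq, GRCh38.p14) mark this motif, which 1.9% of all 27305 promoter windows held. Of the 48 tested genes of the list 39 had a promoter, and 2 of them (5.1%) held the motif. Of the 20 that rose 15 had a promoter, and 1 (6.7%) held it.
ASNS: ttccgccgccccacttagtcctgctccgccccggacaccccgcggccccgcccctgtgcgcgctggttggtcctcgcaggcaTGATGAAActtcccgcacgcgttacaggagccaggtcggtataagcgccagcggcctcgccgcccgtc

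Chaperones of the endoplasmic reticulum were lower where most of them changed: 4 of 35 tested genes rose and 13 fell (35 listed, median log2 change -0.27, fell in 8 without combination replicate 1 and 6 without combination replicate 2). HSPA5, the main chaperone there, stood at 610.3 and 582 CPM in the combination libraries against 1010.4 and 998 in the DMSO libraries (log2 change -0.75 ± 0.11 SE, adjusted p = 0.000287). XBP1 (-0.61), a transcription factor of the unfolded protein response, and the coat protein gene SEC24D (-1.08) fell too. The 4 that rose, DERL1 (0.34), DERL2 (0.32), DNAJB11 (0.34) and SEC23B (0.30), changed by little. Other settings ended the calls for DERL2 in a fit of the compared libraries alone (adjusted p 0.00217 to 0.0661 over its alternatives), for DNAJB11 without either DMSO library or either combination library and in a fit of the compared libraries alone (adjusted p 0.000331 to 0.194 over its alternatives) and for SEC23B without DMSO replicate 2 or either combination library and in a fit of the compared libraries alone (adjusted p 0.00122 to 0.142 over its alternatives).

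NRF2 is the transcription factor of the response to electrophiles, and in its list 15 of 36 tested genes rose and 4 fell (38 listed, median log2 change 0.25). NQO1, a quinone reductase and standard NRF2 target, stood at 299 and 307 CPM in the combination libraries against 93.8 and 97.8 in the DMSO libraries (log2 change 1.66 ± 0.10 SE, adjusted p = 1.57e-06). FTL and FTH1, the ferritin chains that store iron, rose by 1.71 and 0.97 on the log2 scale, TALDO1 of the pentose phosphate pathway by 0.79, OSGIN1 by 1.38 and the thioredoxin reductase gene TXNRD1 by 0.53. HMOX1, which degrades haem, changed by 0.36 ± 0.21 (adjusted p = 0.212) and did not pass, except without combination replicate 1 (adjusted p = 0.0372). The falls were those of the transporter genes ABCC3 (-1.83) and ABCC4 (-0.63), of AKR1C3 (-1.57) and of NFE2L2 (-0.27), which encodes NRF2. The test was no longer passed for ABCC4 without DMSO replicate 1 or combination replicate 2 (adjusted p 9.09e-05 to 0.13 over its alternatives), for AKR1C3 without DMSO replicate 2 or either combination library (adjusted p 4.30e-06 to 0.17 over its alternatives) and for NFE2L2 without either DMSO library or either combination library, with no filter, in a fit of the 24 h libraries alone and in a fit of the compared libraries alone (adjusted p 0.00341 to 0.21 over its alternatives). AKR1C3 shares long stretches with its paralogs, so its reads may be split among them. Among heat shock proteins 11 of 29 tested genes rose and 1 fell (30 listed, median log2 change 0.24). HSPA4L (0.80), the co-chaperone genes FKBP4 (0.62) and DNAJB4 (0.57) rose and BAG3 (-0.41) fell.

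Cell cycle lists moved in both directions. In the mitosis and G2/M list 2 of 51 tested genes rose and 26 fell (51 listed, median log2 change -0.36, fell in 15 without DMSO replicate 1 and 14 without combination replicate 2). The kinesin gene KIF20A, needed for cytokinesis, stood at 101 and 116 CPM in the combination libraries against 234 and 235 in the DMSO libraries (log2 change -1.12 ± 0.12 SE, adjusted p = 5.64e-05). PLK1, the kinase that drives entry into and exit from mitosis, stood at 93.6 and 99.0 CPM in the combination libraries against 192 and 172 in the DMSO libraries (log2 change -0.92 ± 0.12 SE, adjusted p = 0.000147). The groups did not overlap in either gene. CCNB1 (-0.83) and CCNB2 (-0.69), the mitotic cyclins, AURKA (-0.83), DLGAP5 (-0.98) and the kinetochore gene NUF2 (-0.81) fell as well. MAD2L1 (0.28) and AURKB (0.38) were the 2 that rose. Calls were lost for MAD2L1 without either DMSO library or either combination library and in a fit of the compared libraries alone (adjusted p 0.00445 to 0.131 over its alternatives) and for AURKB without either DMSO library or combination replicate 2 and in a fit of the 24 h libraries alone (adjusted p 0.00175 to 0.121 over its alternatives).

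Promoters of PLK1 and CCNB2 are shown because genes of late cell cycle phases are known for a cell cycle genes homology region (TTTGAA) a short way from CCAAT boxes. Capitals mark both motifs on either strand in the 150 bases before the start at chr16:23678739-23678888 on the plus strand and chr15:59104996-59105145 on the plus strand (RefSeq, GRCh38.p14).
PLK1: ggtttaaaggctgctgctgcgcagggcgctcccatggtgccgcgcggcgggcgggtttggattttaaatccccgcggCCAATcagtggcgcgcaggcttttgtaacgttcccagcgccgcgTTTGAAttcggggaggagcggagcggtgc
CCNB2: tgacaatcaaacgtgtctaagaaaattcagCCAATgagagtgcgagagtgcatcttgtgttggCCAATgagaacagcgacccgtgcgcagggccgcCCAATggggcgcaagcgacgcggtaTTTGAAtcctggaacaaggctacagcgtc
TTTGAA lies 29 bases before the start in both, and CCAAT at 73 bases in PLK1 and at 120, 87 and 54 bases in CCNB2. Of the 51 tested genes of the list 44 had a promoter, and 21 of them (47.7%) held TTTGAA and 32 (72.7%) held CCAAT, against 7.4% and 24.4% of the 27305 windows. Of the 26 genes that fell, 24 had a promoter, with TTTGAA in 12 (50%) and CCAAT in 18 (75.0%), close to the shares of the whole list.

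Replication genes, which E2F factors drive from late G1 onward, were more often higher: 20 of 52 tested genes rose and 6 fell (52 listed, median log2 change 0.22). RRM2, a subunit of the enzyme that makes deoxynucleotides, stood at 605 and 672 CPM in the combination libraries against 362 and 348 in the DMSO libraries (log2 change 0.85 ± 0.08 SE, adjusted p = 2.55e-05). The licensing factor genes CDT1 (0.97) and CDC6 (0.66) and the flap endonuclease gene FEN1 (0.46) rose, and MCM7 (-0.73), a subunit of the replicative helicase, fell. In homologous recombination and the Fanconi pathway 22 of 39 tested genes rose and none fell (39 listed, median log2 change 0.35, 26 and 1 with the block, rose in 12 without DMSO replicate 2 and 13 without combination replicate 1). XRCC3, a recombination factor, stood at 82.3 and 86.8 CPM in the combination libraries against 46.9 and 45.7 in the DMSO libraries (log2 change 0.87 ± 0.10 SE, adjusted p = 6.37e-05), with little spread within a group and no overlap. XRCC2 (0.97), RAD51C (0.74), RAD51AP1 (0.69), the end-resection nuclease gene EXO1 (0.77) and RAD50 (0.64) rose too. The changes were small beside those of the cytokines, with none of the list above 0.97.

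Genes for repair of the alkylated bases themselves changed in both directions: in the alkylation and base excision repair list 8 of 27 tested genes rose and 3 fell (28 listed, median log2 change 0.19). The total called is not far from the 33.4% over all tested genes, of which 16.2% rose and 17.2% fell. ALKBH2 (0.55), which removes methyl groups from DNA directly, OGG1 (0.60), a glycosylase of oxidised guanine, and APTX (0.65), which clears blocked DNA ends, rose. MPG, the glycosylase of methylated adenine and guanine, stood at 27.5 and 23.1 CPM in the combination libraries against 34.6 and 42.9 in the DMSO libraries (log2 change -0.62 ± 0.18 SE, adjusted p = 0.021), and NTHL1 (-0.91) and the scaffold gene XRCC1 (-0.72) fell too. The call was lost for MPG without DMSO replicate 2 or combination replicate 2 (adjusted p 0.0012 to 0.175 over its alternatives). In mismatch repair, beside 16.2% higher and 17.2% lower over all tested genes, 2 of 8 tested genes rose and none fell (8 listed, median log2 change 0.19, 4 and 0 with the block). These were EXO1 and PMS2 (0.44), and the call was lost for PMS2 without DMSO replicate 2 or combination replicate 2 and in a fit of the compared libraries alone (adjusted p 0.00332 to 0.105 over its alternatives). PMS2 has close pseudogenes, so its reads may be shared with them. For checkpoint and translesion genes 11 of 29 tested genes rose and 1 fell (30 listed, median log2 change 0.13, 14 and 2 with the block, rose in 7 without DMSO replicate 2). CDC25A (0.99), the phosphatase that activates CDK2, CLSPN (0.90), RAD18 (0.63) and RAD1 (0.56) rose, and the kinase gene WEE1 (-0.49) fell.

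In the p53 pathway, whose namesake is mutated in this line, 9 of 36 tested genes rose and 5 fell (37 listed, median log2 change 0.16, 15 and 7 with the block, rose in 5 without combination replicate 1 and 4 without combination replicate 2). The total called is not far from the 33.4% over all tested genes, of which 16.2% rose and 17.2% fell. GADD45A stood at 73.1 and 102 CPM in the combination libraries against 30.3 and 37.7 in the DMSO libraries (log2 change 1.36 ± 0.18 SE, adjusted p = 0.000219), and GADD45B rose by 0.85. The stress cytokine gene GDF15 fell by 2.08 (SE 0.32, adjusted p = 0.000487), with the death receptor gene TNFRSF10B (-0.57), the decoy receptor gene TNFRSF10C (-1.61), DDB2 (-0.57) and PMAIP1 (-0.49). The test was no longer passed for TNFRSF10C without DMSO replicate 2 or combination replicate 1 (adjusted p 2.08e-05 to 0.0836 over its alternatives) and for DDB2 without DMSO replicate 2 or either combination library, in a fit of the 24 h libraries alone and in a fit of the compared libraries alone (adjusted p 0.00131 to 0.259 over its alternatives). CDKN1A, the p21 inhibitor of cyclin kinases, stood at 64.1 and 136 CPM in the combination libraries against 86.9 and 168 in the DMSO libraries (log2 change -0.35 ± 0.48, adjusted p = 0.616). Within each title start its combination library was the lower, and with the block it fell (-0.37, adjusted p = 0.0153). Its sign turned without DMSO replicate 2 (0.21) and without combination replicate 1 (0.12). Those fits had no block and set a group of a single title start against a group of both. The p53 ligase gene MDM2 changed by 0.21 ± 0.08 (adjusted p = 0.0767) and rose with the block (adjusted p = 0.0292).

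Other lists held fewer or smaller changes, to be read beside the 33.4% of all tested genes that passed, 16.2% higher and 17.2% lower. Among apoptosis genes 2 of 29 tested genes rose and 8 fell (31 listed, median log2 change -0.01, 5 and 9 with the block, fell in 5 without combination replicate 1). The total called is near the share over all genes. Those that fell included BCL2A1 (-2.81), an NF-kB target that protects cells, and the BH3-only gene BMF (-2.37). CASP2 (0.84) and DIABLO (0.43) rose, and the call was lost for DIABLO without DMSO replicate 2 or combination replicate 1 (adjusted p 5.06e-05 to 0.0612 over its alternatives). In cholesterol and fatty acid synthesis none of 31 tested genes rose and 9 fell (32 listed, median log2 change -0.22, 3 and 12 with the block). INSIG1 (-0.67), which restrains sterol synthesis, was among them. In autophagy and lysosome genes the share that rose was near that of all genes: 6 of 32 tested genes rose and 3 fell (32 listed, median log2 change 0.04, 9 and 7 with the block, rose in 2 without DMSO replicate 1 and 3 without combination replicate 2). MCOLN1 (0.68) and ATG12 (0.54) rose, and WIPI1 (-0.71), CTSB and LAMP2 (-0.31) fell, and the call was lost for LAMP2 without combination replicate 2 (adjusted p 7.53e-05 to 0.0696 over its alternatives). For proteasome subunits 6 of 34 tested genes rose and none fell (34 listed, median log2 change 0.15, 10 and 0 with the block), among them PSMD12 (0.59) and PSMD3 (0.47), and the share that rose was near that of all genes. For cytosolic ribosomal proteins none of 39 tested genes rose and 1 fell (39 listed, median log2 change -0.02, 1 and 3 with the block), the latter RPL3 (-0.44). In the list of core histone genes none of 16 tested genes rose and 1 fell (26 listed, median log2 change -0.32, 0 and 4 with the block). The latter was H1F0 (-1.25), which encodes a linker histone, so no core histone gene passed without the block. Most histone transcripts lack a poly(A) tail, and whether poly(A) RNA was selected is not stated in the labels.

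The combination was then set against each single treatment at 24 h, which asks what the second agent adds. Against MMS alone, 17 of 13948 genes passed (0.122%), 15 lower and 2 higher, and 689 had an unadjusted p under 0.05. With the block 283 passed, 38.2% of them higher, and with DESeq2 86, 24.4% of them higher, against 11.8% of the 17. Without single libraries 3 to 6 passed (3 without either combination library, 6 without MMS replicate 1 and 4 without MMS replicate 2). Of the ERK output list 4 of 33 tested genes were lower and none higher (17 lower with the block), and of the cytokine list 4 of 28 were lower and none higher (12 lower with the block). DUSP4 stood at 232 and 218 CPM with the combination, 449 and 444 with MMS, 459 and 457 with sorafenib and 880.1 and 911 with DMSO, and its log2 change against MMS was -0.99 ± 0.07 (adjusted p = 9.72e-05). IL1B stood at 5.69 and 3.02, 43.0 and 38.6, 19.0 and 15.9 and 156 and 118 in the same order, with a change against MMS of -3.21 ± 0.29 (adjusted p = 0.000539). CSF3 stood at 14.1 and 10.9, 53.5 and 57.0, 10.9 and 8.53 and 77.5 and 82.2, with a change against MMS of -2.14 ± 0.17 (adjusted p = 0.000139). For DUSP4 and IL1B each single treatment lay between DMSO and the combination, whereas CSF3 with the combination did not pass against sorafenib alone (log2 change 0.36 ± 0.17, adjusted p = 0.121). Of the 17, these 3 passed in every one of the 11 alternatives run.

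DUSP6 (log2 change -0.90, adjusted p = 0.00171) was lower than with MMS alone, and so was IL1A (-2.20, adjusted p = 0.0128). Leaving out libraries ended the calls for DUSP6 without either combination library and in a fit of the compared libraries alone (adjusted p 6.17e-15 to 0.076 over its alternatives) and for IL1A without either combination library or MMS replicate 2 (adjusted p 8.98e-12 to 0.199 over its alternatives). MMP3, a stromelysin that degrades matrix, stood at 10.4 and 21.2 CPM with the combination, 90.2 and 94.2 with MMS, 1.05 and 2.22 with sorafenib and 5.97 and 10.1 with DMSO. Its level was thus higher with MMS alone than in the other groups, and the change against MMS was -2.55 ± 0.39 on the log2 scale. The call was lost for MMP3 without either combination library or either MMS library, in a fit of the 24 h libraries alone and in a fit of the compared libraries alone (adjusted p 6.18e-09 to 0.319 over its alternatives). Against MMS, PLAT (-1.26), PHLDA1 (-0.83) and HBEGF (-0.53) were lower and SEL1L3 (1.01) and SDC2 (0.77) higher. The calls of these 5 were lost without either combination library, without MMS replicate 2 and in a fit of the compared libraries alone, those of all but PLAT also without MMS replicate 1, and those of all but PHLDA1 in a fit of the 24 h libraries alone (adjusted p over their alternatives 2.29e-08 to 0.347). The remaining 6 lower genes, ASB2, IL11, MT2A, LOC647979, MMD and ZFP36L1, were named after their values were seen, and each lost its call without either combination library or either MMS library. All but IL11 also lost it in a fit of the compared libraries alone, ASB2, MMD and ZFP36L1 in a fit of the 24 h libraries alone, and ASB2 with DESeq2.

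**Figure D3:**
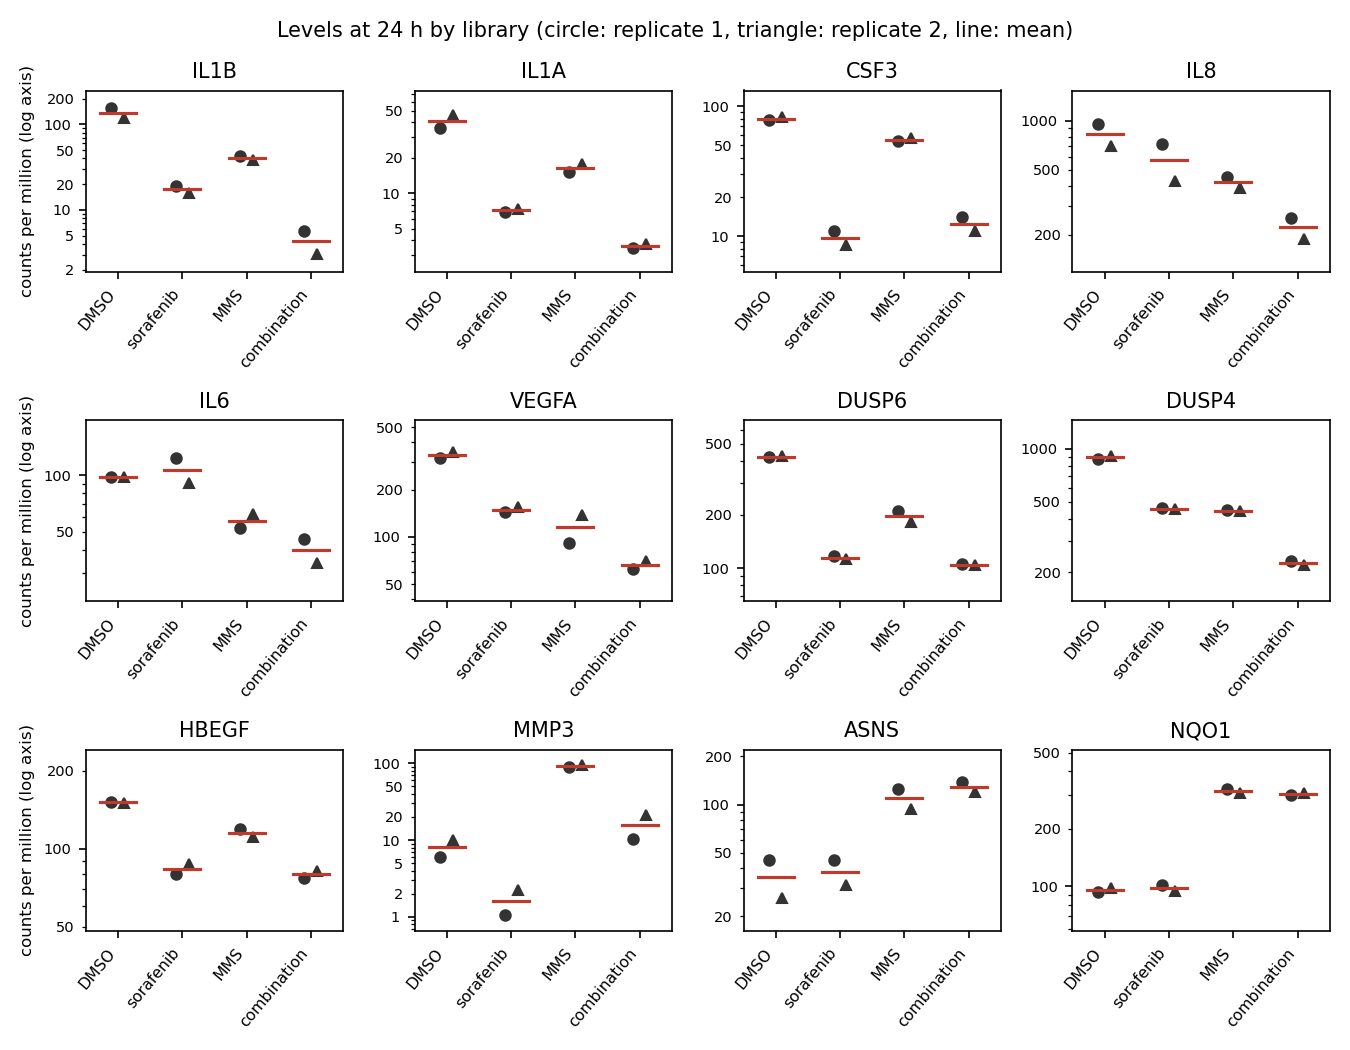
Level in CPM (log axis) in each of the 8 libraries at 24 h (circles replicate 1, triangles replicate 2, red line the group mean) for 12 genes under DMSO, sorafenib, MMS and the combination. IL1B, DUSP4 and VEGFA are lowest with the combination, CSF3 lies between 8.53 and 14.1 with sorafenib alone and the combination, MMP3 is highest with MMS alone, and ASNS and NQO1 are higher with MMS and the combination than with DMSO and sorafenib.

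Against sorafenib alone, 5126 genes passed (36.8%), and 3265 passed without combination replicate 2 and 3304 without sorafenib replicate 1. The sorafenib exposure of the 2 groups differs by the 12 h of pre-incubation. Among the largest differences KIAA1199, a hyaluronan-degrading protein, had a log2 change of -5.48 and SYT12 one of -4.34. The ubiquitin-like gene UBD (-4.33, or -5.07 without combination replicate 2) and the chemokine gene CX3CL1 (-4.09, or -4.93 without combination replicate 1) were lower too. SNORA71C (3.02) and MYCT1 (3.31) were higher, as was MMP3 (3.31, or 3.90 without sorafenib replicate 2). Lower levels than with sorafenib alone were also found for VEGFA (-1.17, adjusted p = 0.000451), IL8 (-1.37, adjusted p = 0.000856) and IL6 (-1.42, adjusted p = 0.000265). Against MMS alone these 3 did not pass, at -0.81 ± 0.18 for VEGFA, -0.92 ± 0.23 for IL8 and -0.52 ± 0.20 for IL6 (adjusted p = 0.178, 0.29 and 0.858); with the block, where VEGFA and IL8 passed and IL6 did not, the values were -0.79, -0.93 and -0.52 (adjusted p = 0.000179, 6.77e-05 and 0.148).

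Each treatment's own log2 change against DMSO shows the same genes side by side, with the DMSO libraries shared by all of them. At the threshold 4394 genes passed with MMS alone (31.5%) and 114 with sorafenib alone (0.817%). The changes were IL1B -1.75 with MMS alone, -2.97 with sorafenib alone and -4.96 with the combination. They were DUSP6 -1.11 with MMS alone, -1.88 with sorafenib alone and -2.02 with the combination, and DUSP4 -1.01 with MMS alone, -0.97 with sorafenib alone and -1.99 with the combination. For the secreted factors they were VEGFA -1.53 with MMS alone, -1.16 with sorafenib alone and -2.33 with the combination, IL8 -0.99 with MMS alone, -0.54 with sorafenib alone and -1.91 with the combination, and IL6 -0.77 with MMS alone, 0.13 with sorafenib alone and -1.29 with the combination. For stress genes they were ASNS 1.62 with MMS alone, 0.11 with sorafenib alone and 1.86 with the combination, and NQO1 1.72 with MMS alone, 0.03 with sorafenib alone and 1.66 with the combination. Whether the combination departs from the sum of the single log2 changes was tested as an interaction, and 0 of 13948 genes passed with edgeR (0%), with 304 at an unadjusted p under 0.05 and 1 gene passing with DESeq2. The smallest adjusted p was 0.103, for DUSP6 (0.98 ± 0.13). With the block 4 genes passed.

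The same comparison at 8 h, made with other libraries, shows which of these changes were already present. At 8 h 3389 genes passed, and 1882 passed at both times, 40.4% of those at 24 h and 55.5% of those at 8 h. Of the 1882, 1741 had the same direction and 141 the opposite one. The change against DMSO itself differed between the times in 1507 genes (10.8%), with 626 higher (4.49%) and 881 lower (6.32%) at 24 h than at 8 h. With the block 4016 genes passed. Without combination 8 h replicate 2 the count was 1610, and it was lower without other libraries: 1281 without DMSO 24 h replicate 1, 765 without DMSO 24 h replicate 2, 830 and 614 without combination 24 h replicate 1 and 2, 646 and 926 without DMSO 8 h replicate 1 and 2, and 885 without combination 8 h replicate 1.

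ATF4 targets and reticulum chaperones had lower changes at 24 h than at 8 h. In the ATF4 list the median log2 change was 1.20 at 8 h and 0.28 at 24 h, and 21 of 48 tested genes had a lower change at 24 h by the test of the difference, with none higher (25 and 2 with the block). In the reticulum list the medians were 0.39 and -0.27, with 14 of 35 lower and none higher (23 with the block). HSPA5 had a log2 change of 1.74 ± 0.11 at 8 h and -0.75 ± 0.11 at 24 h (difference -2.49 ± 0.15, adjusted p = 4.33e-06). DDIT4 had 1.62 ± 0.21 and -3.15 ± 0.22 (difference -4.77 ± 0.30, adjusted p = 6.23e-06). In CPM, DDIT4 stood at 289.7 and 201 with the combination at 8 h against 87.6 and 72.3 with DMSO, and at 29.6 and 21.2 against 203 and 248 at 24 h, so that the level in DMSO cells was itself higher at 24 h. Both genes thus passed the test in opposite directions at the 2 times. XBP1 (1.71 at 8 h, -0.61 at 24 h), HERPUD1 (2.18 and -0.73) and the stress sensor gene SESN2 (3.09 and 0.07) had lower changes at 24 h as well. ASNS did not pass the test of the difference (1.20 at 8 h, 1.86 at 24 h, adjusted p = 0.223).

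Cytokine transcripts were lower at 24 h than at 8 h relative to DMSO in many members: the list's median was -0.44 at 8 h and -1.63 at 24 h, and 11 of 28 tested genes had a lower change and 1 a higher one (20 and 2 with the block). IL8 went from 0.25 ± 0.23 to -1.91 ± 0.24 (adjusted p of the difference 0.00258) and IL1B from -3.19 ± 0.29 to -4.96 ± 0.30 (adjusted p = 0.017). CSF2 was the member with a higher change at 24 h (-1.76 at 8 h and -0.36 at 24 h). Homologous recombination genes had medians of 0.11 and 0.35, with 7 of 39 higher and 1 lower at 24 h (13 and 1 with the block). Outside the lists, the genes with the smallest p among those with a higher change at 24 h were ZNF238 (1.37), a transcriptional repressor, STARD13 (1.18), a GTPase activator, the matrix glycoprotein gene THBS1 (1.53) and MYBL1 (1.21), as log2 differences between the times.

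**Figure D4:**
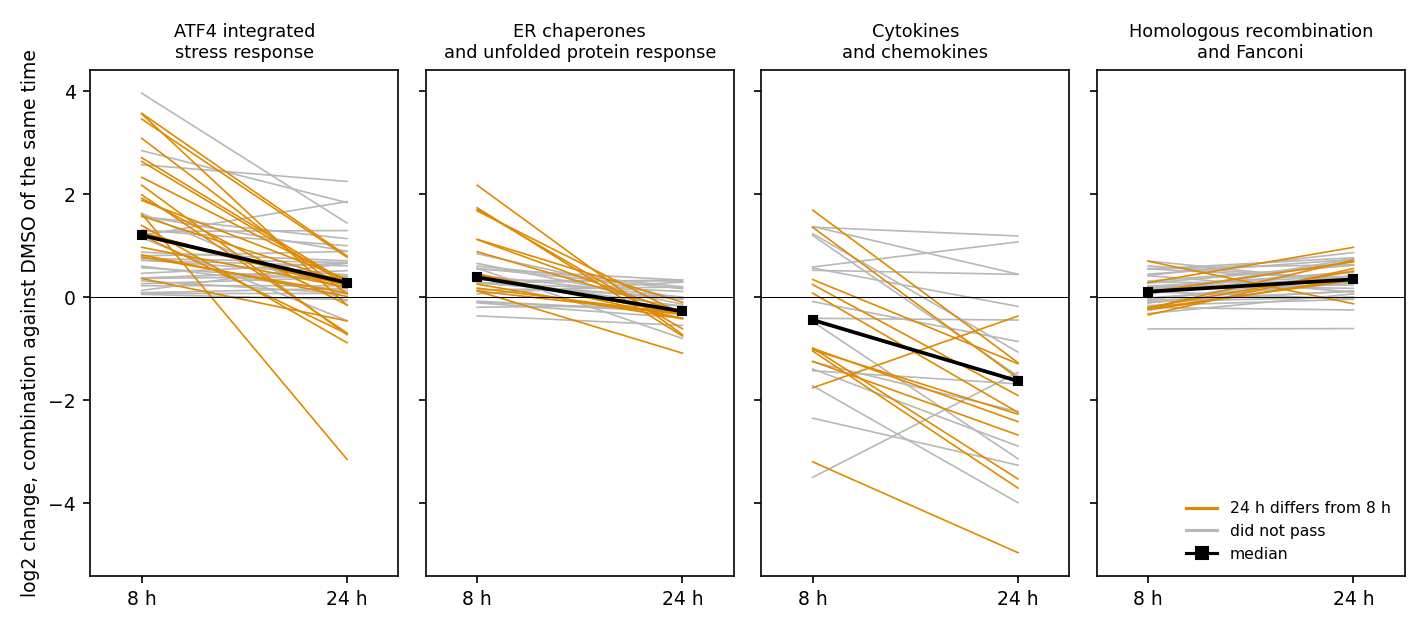
log2 change of the combination against the DMSO libraries of the same time (vertical axis) at 8 h and 24 h for the tested genes of 4 lists, 1 line a gene, orange where the change differed between the times at an adjusted p under 0.05, with the list's median in black. The ATF4 median goes from 1.20 to 0.28 and the reticulum median from 0.39 to -0.27.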

How the data were processed

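RNA of MDA-MB-231 cells was sequenced in 16 libraries, 8 groups of 2, after TruSeq preparation from total RNA, per the labels' protocols. The authors deposited whole-number read counts per gene, made with CASAVA 1.8.2, TopHat2 2.0.8b and HTSeq on hg19, per the submitters' processing notes. Neither the gene annotation nor whether HTSeq counted by strand is given in the sources used here, so that overlapping and antisense genes cannot be told apart. The 5 counter rows (no feature 7.05 to 7.69%, ambiguous 1.05 to 1.16% and multiply aligned 29.5 to 30.8% relative to each of the 4 libraries) were left out. Reads of near-identical genes may therefore be lost or split.

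Counts of all 16 libraries were fitted with edgeR 4.0.16 (R 4.3.3): TMM factors, filterByExpr, 8 group means, quasi-likelihood test, Benjamini-Hochberg adjustment over 13948 genes, threshold 0.05, 8 residual degrees of freedom. Standard errors are the log2 change over the square root of F. CPM of single genes use the TMM library sizes, and the summed levels of the marker lists use the gene reads of each library without TMM factors. Replicate 1 is the title start MDA231 and replicate 2 MDAMB231. Deviations of libraries with the same title start correlated at 0.489 to 0.707 in all 28 pairs of groups, so the start was also fitted as a block. Alternatives were RLE factors, dropping the filter, a minimum mean count of 50, fewer libraries, DESeq2 1.42.0 and leaving out each library, where the remaining library of a group is assumed to vary like the others. Only the block setting used the block, so leaving out a library sets a group of a single title start against groups of both. Differences between the title starts then enter the change. Counts were simulated for this comparison (13889 genes) from the means and spread of the fit with the block. Title-start differences were thus built in, and the blocked fit matched the counts by design. On these counts, the fit without the block recovered 37.3% of 1.5-fold, 85.1% of 2-fold and 97.0% of 4-fold changes. It made 146 calls, 0 of them false. With the block the shares were 76.1%, 98.5% and 100%, with 8 false calls among 191. Only 67, 67 and 66 genes were changed, all with a mean count of at least 50. The data held 4663 calls, so recovery there may differ.

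The comparison, lists and tests were chosen with earlier results of these data known. Genes named are the 10 largest changes per direction whose mean count reached 50, with no overlap of libraries, up to 4 members per list with the smallest p, IL8, IL6 and VEGFA, and for other comparisons 5 per direction; other named genes, and those of counts of 5 or fewer, were chosen after their values were seen. Of the gene names 19550 are current, 2386 older and 1292 unmatched. Some genes of the lists are counted but not reported here by name.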

Additional observations from a re-analysis of the deposited data

Results flagged for a closer look

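The change of the combination against DMSO differed between 24 h and 8 h in 1507 genes by edgeR's test of the difference itself. Among genes with a lower change at 24 h, the log2 difference was -4.77 for DDIT4, -3.02 for SESN2, -2.90 for HERPUD1, -2.49 for HSPA5 and -2.32 for XBP1. Their levels with the combination at 8 h were 289.7 and 201, 117 and 104, 231 and 199, 3193 and 2816 and 287 and 253 CPM, against 29.6 and 21.2, 13.8 and 15.8, 27.7 and 32.9, 610.3 and 582 and 47.8 and 54.4 at 24 h. Among genes with a higher change at 24 h, it was 1.53 for THBS1, 1.39 for CSF2, 1.37 for ZNF238, 1.21 for MYBL1 and 1.18 for STARD13. THBS1 had a log2 change of -1.83 ± 0.11 at 8 h and -0.29 ± 0.11 at 24 h, and ZNF238 of -1.56 ± 0.09 and -0.19 ± 0.08. Each of the 10 passed in every alternative run for it. Groups of 2 libraries are too small for a test of single outlying values.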

How the results depend on the processing

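Counts of called genes moved with the settings as follows. With the replicate block they were 7044 for the combination against DMSO, 283 against MMS, 4 for the interaction and 4016 for 24 h minus 8 h; the title starts pair the libraries, all 4663 genes stayed called, and among the genes named in the main comparison the block changed 3 calls, those of CDKN1A, MDM2 and EGFR, all gained. Without single libraries the counts ran from 2940 to 3732 against DMSO, 3 to 6 against MMS, 3265 to 3805 against sorafenib and 614 to 1610 between the times. Against MMS, 43 genes passed with no filter, 9 with the 24 h libraries alone, 5 with the compared libraries alone and 86 with DESeq2; the interaction gave 1 with no filter and 1 with DESeq2, and the compared libraries alone gave 441 between the times. The cause was not tested, apart from the fewer libraries of some settings.

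Of the 203 genes named against DMSO, RLE factors left 202 on the same side of the threshold, DESeq2 203, and leaving out 1 library 173 to 188. In the leave-out fits, which had no block, CDKN1A reversed to 0.21 without DMSO replicate 2 and 0.12 without combination replicate 1, over a range that began at -0.97. With 2 libraries a group, many small changes do not pass, and a gene that did not pass may still have changed.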

Other observations

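Marker lists fixed to check the cell line were themselves lower in part. Of the claudin-low and basal list none of 11 tested genes rose and 8 fell (14 listed, median log2 change -0.51, 1 and 10 with the block, fell in 5 without DMSO replicate 2, 3 without combination replicate 1 and 5 without combination replicate 2). CAV1, the coat protein of caveolae, fell by 0.78 on the log2 scale and MSN (-0.44), which links membrane and actin, fell too, while the calls were lost for VIM without DMSO replicate 2 or combination replicate 1 (adjusted p 1.74e-06 to 0.162 over its alternatives), for CD44 without DMSO replicate 2 or either combination library (adjusted p 2.16e-05 to 0.198 over its alternatives), for AXL without DMSO replicate 1 or either combination library (adjusted p 0.00296 to 0.132 over its alternatives) and for TP63 without either combination library (adjusted p 5.20e-05 to 0.0694 over its alternatives). Of the luminal list none of 18 tested genes rose and 7 fell (20 listed, median log2 change -0.44, 1 and 9 with the block, fell in 4 without DMSO replicate 2 and 4 without combination replicate 1), among them the tight junction genes CLDN7 (-1.57) and CLDN4 (-0.88) and the secreted factor gene TFF1 (-3.23). TFF1 had few reads, 13 and 15 in the DMSO libraries and 2 and 2 in the combination libraries. Of the fibroblast and endothelial list none of 7 tested genes rose and 4 fell (12 listed, median log2 change -0.70), with PECAM1 at 5.91 and 6.78 CPM in DMSO and 0.401 and 0.419 in the combination. The calls were lost for PDGFRB without combination replicate 2 (adjusted p 1.80e-05 to 0.0649 over its alternatives) and for KDR without either DMSO library or either combination library (adjusted p 0.0037 to 0.122 over its alternatives), and CDH5 had a log2 change of -4.19, or -3.33 without DMSO replicate 1, -3.54 without combination replicate 1 and -5.17 without combination replicate 2. CDH5 had 40 and 15 reads in the DMSO libraries and 1 and 3 in the combination libraries. Of the leukocyte list none of 5 tested genes rose and 2 fell (12 listed, median log2 change -1.44, 0 and 4 with the block), CD14 (-3.16, or -2.31 without DMSO replicate 2) and CSF1R (-2.19, or -3.03 without combination replicate 1). LOC344887 of the NRF2 list stood at 0.657 and 1.68 CPM in the combination and 0.112 and 0.113 in DMSO.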
